A study of Mus musculus with 36 samples.

Results

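The genes described here are Hmga2, the 3 IGF2 mRNA-binding protein genes Igf2bp1, Igf2bp2 and Igf2bp3, Lin28b and H19, which are grouped as oncofetal genes because fetal tissues and many tumors express them. The name does not mean absence from adult tissue for all 6. In the 18 control glands H19 scored 0.454 to 1.94 and Igf2bp2 -0.324 to -0.0332, on the score explained below. The 6 genes were chosen with the measured values in view: of the 21650 genes with expression values, Hmga2 had the largest difference between 4T1 and Py230 tumors at 6 weeks post-inoculation (w p.i.). In units of the score explained below, that difference was 3.19, followed by 2.86 for Hhip and 2.70 for Tmprss11e. Expression values were present for 5 of the 6 genes. Lin28b had no value among the scores used here, and the authors list it with a mean normalized count of 0.829, against 427 for Hmga2, 249 for Igf2bp2, 15.1 for Igf2bp3, 10.5 for Igf2bp1 and 2078 for H19. These means are pooled values of the authors, not corrected for gene length.

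The RNA-seq libraries numbered 36 and formed 12 groups of 3. 4T1 cells, a luciferase-expressing metastatic mammary tumor line of BALB/c origin, were inoculated into the milk ducts of BALB/c dams. Py230 cells, a line from a spontaneous mammary tumor of an MMTV-PyMT transgenic C57BL/6 mouse, were inoculated, in a larger number per gland, into the milk ducts of C57BL/6 dams. The control glands of both strains received Matrigel, the carrier gel, without cells, and all 4 kinds of tissue were collected 1, 3 or 6 weeks after inoculation. The dams were mated at 8 weeks of age and were inoculated after their pups had been weaned 10 days after delivery, so every gland, controls included, had lactated. The study also kept C57BL/6 mice that carry an NF-κB luciferase reporter, and which C57BL/6 mice gave RNA is not stated. Each tumor type is 1 cell line in 1 strain, so line, strain and number of cells cannot be told apart between the tumors, and the control glands measure the strain alone. The labels number 3 tumors or glands per group without saying that they came from separate animals. The p-values of the main fit use 1 spread per gene, between samples within groups, shared by all 12 groups. They do not measure the spread of the compared groups alone.

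Each value is a score that places a gene among all genes of the same library: 0 is the average gene of that library, and 1 lies 1 SD above it. Differences are given in score units and are not fold changes. Such scores do not keep the read depth, which is unknown here, and counting error could not be judged. The libraries are bulk tissue, in which fewer cells of a type and less RNA per cell cannot be told apart. The mean of 5 luminal epithelial markers (Epcam, Krt8, Krt18, Krt19 and Cdh1) lay between 1.26 and 1.93 in all 18 tumors and between 1.40 and 1.89 in all 18 control glands, so epithelium was measured in every library.

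HMGA2 is a chromatin protein that binds the minor groove of AT-rich DNA and is abundant in the embryo and in mesenchymal tumors. LIN28B blocks the maturation of let-7 microRNAs, which in turn repress Hmga2, Lin28b and the Igf2bp mRNAs through sites in their 3' untranslated regions (UTRs). The IGF2BP proteins bind and stabilize mRNAs, among them that of the growth factor IGF2, and HMGA2 is known to raise the transcription of Igf2bp2. H19 is a maternally expressed imprinted RNA beside Igf2 and the host of miR-675.

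The let-7 family links 5 of the 6 genes by sequence and is therefore shown here. RefSeq (GRCm38.p6) holds 11 mature forms of the family, of which 10 share the seed GAGGUAG (bases 2 to 8) and 1, let-7j, has GAGGUAU. In the following mature sequences the seed is in capitals.
let-7a-5p: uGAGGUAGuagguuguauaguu
let-7e-5p: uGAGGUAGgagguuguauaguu
let-7g-5p: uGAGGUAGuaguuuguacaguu
miR-98-5p: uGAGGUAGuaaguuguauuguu
let-7j: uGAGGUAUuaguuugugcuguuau

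The match to the common seed, CTACCTC, was searched on the sense strand in the 3' UTR of the longest protein-coding transcript of each gene (GENCODE vM21, mm10). It occurred 4 times in the 3014 bases of Hmga2, 4 times in the 6337 bases of Igf2bp1, 1 time in the 1784 bases of Igf2bp2, 1 time in the 2119 bases of Igf2bp3 and 4 times in the 4445 bases of Lin28b. Of 20941 protein-coding genes, 8.86% had at least 1 match and 12 had 4 or more. Among the 2201 3' UTRs within 20% of the length of that of Hmga2, 15.8% held a match and 0.136% held as many as Hmga2. The shares holding as many as the gene itself were 0.354% for lengths like Igf2bp1 and 0.238% for lengths like Lin28b, but 11.8% for lengths like Igf2bp2 and 13.1% for lengths like Igf2bp3. Each of these sets, that of Hmga2 too, includes the gene itself, so no share could be 0. A match of these letters is a description of the reference sequence, and no let-7 RNA was measured. The 4 matches of Hmga2, which lies on the minus strand of chr10, and the first match of each other gene follow, with the match in capitals and 10 bases on each side, 5' to 3'.
Hmga2 (chr10:120364215-120364241): cattcaatttCTACCTCagcatcagtt
Hmga2 (chr10:120362978-120363004): ctcctcaataCTACCTCtgaatgctac
Hmga2 (chr10:120362540-120362566): ttgcaaggaaCTACCTCcacacttcca
Hmga2 (chr10:120361682-120361708): aaacacactaCTACCTCttaagtccca
Igf2bp1 (chr11:95961769-95961795, minus strand): gcgaagtaaaCTACCTCaaggtgtgaa
Igf2bp2 (chr16:22059464-22059490, minus strand): caaataaaagCTACCTCaggtgttttt
Igf2bp3 (chr6:49086778-49086804, minus strand): ttttactcaaCTACCTCaggtattcag
Lin28b (chr10:45381013-45381039, minus strand): ggcgggaagtCTACCTCatgcaagcac

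**Figure D1:**
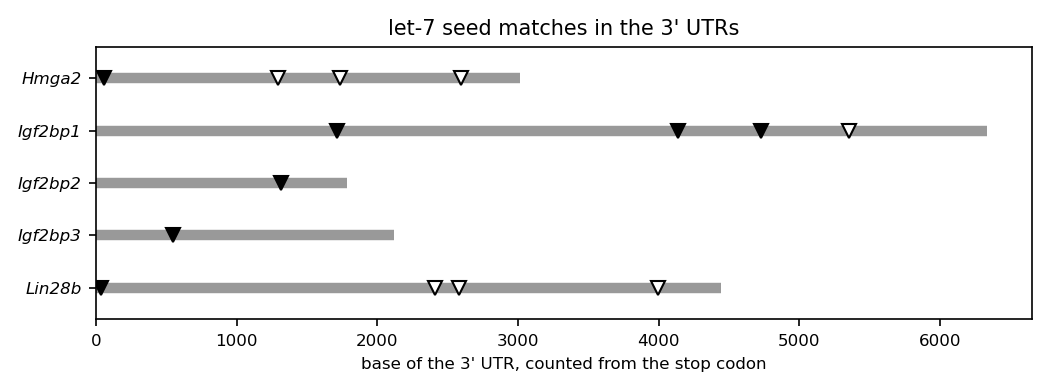
Positions of the CTACCTC matches along the 3' UTRs of the 5 protein-coding genes, in bases from the stop codon; grey bars are the 3' UTRs to scale, filled triangles are matches followed by an A and open triangles are matches followed by another base. Hmga2, Igf2bp1 and Lin28b hold 4 matches each, while Igf2bp2 and Igf2bp3 hold 1 each.

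Hmga2 (ENSMUSG00000056758, mm10 chr10:120361275-120476469) was low in the control glands and in the Py230 tumors at every time point, and high in the 4T1 tumors at 6 w p.i. The 3 4T1 tumors scored -1.31, -1.36 and -1.32 at 1 w p.i., -0.174, -1.82 and -1.73 at 3 w p.i. and 1.35, 1.61 and 1.17 at 6 w p.i. The 9 Py230 tumors lay between -2.04 and -1.59 with a median of -1.83, and the 18 control glands between -2.02 and -1.63 with a median of -1.86. All 3 4T1 tumors of 6 w p.i. thus lay above every other library. The next was the first 4T1 tumor of 3 w p.i., which stood apart from the other 2 of its group.

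In the order of the 12 group means, Hmga2 was highest in the 4T1 tumors of 6 w p.i. (1.38 ± 0.220, SD, n = 3), followed by those of 3 w p.i. (-1.24 ± 0.924) and of 1 w p.i. (-1.33 ± 0.0285). The gap below the first of these was 2.62 with no overlap, whereas the 3 w p.i. and 1 w p.i. groups overlapped. The 4T1 tumors of 1 w p.i. did not overlap the next group, the Py230 tumors of 3 w p.i. (-1.78 ± 0.170). The remaining 8 groups, from -1.81 to -1.98, each overlapped the next in the order. At 6 w p.i. the 4T1 tumors exceeded the Py230 tumors by 3.19 and their own control glands by 3.21, while the Py230 tumors and their control glands differed by 0.0177. These values of 6 w p.i. are the ones, or share the samples, that chose the genes, and are given without a test.

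**Figure D2:**
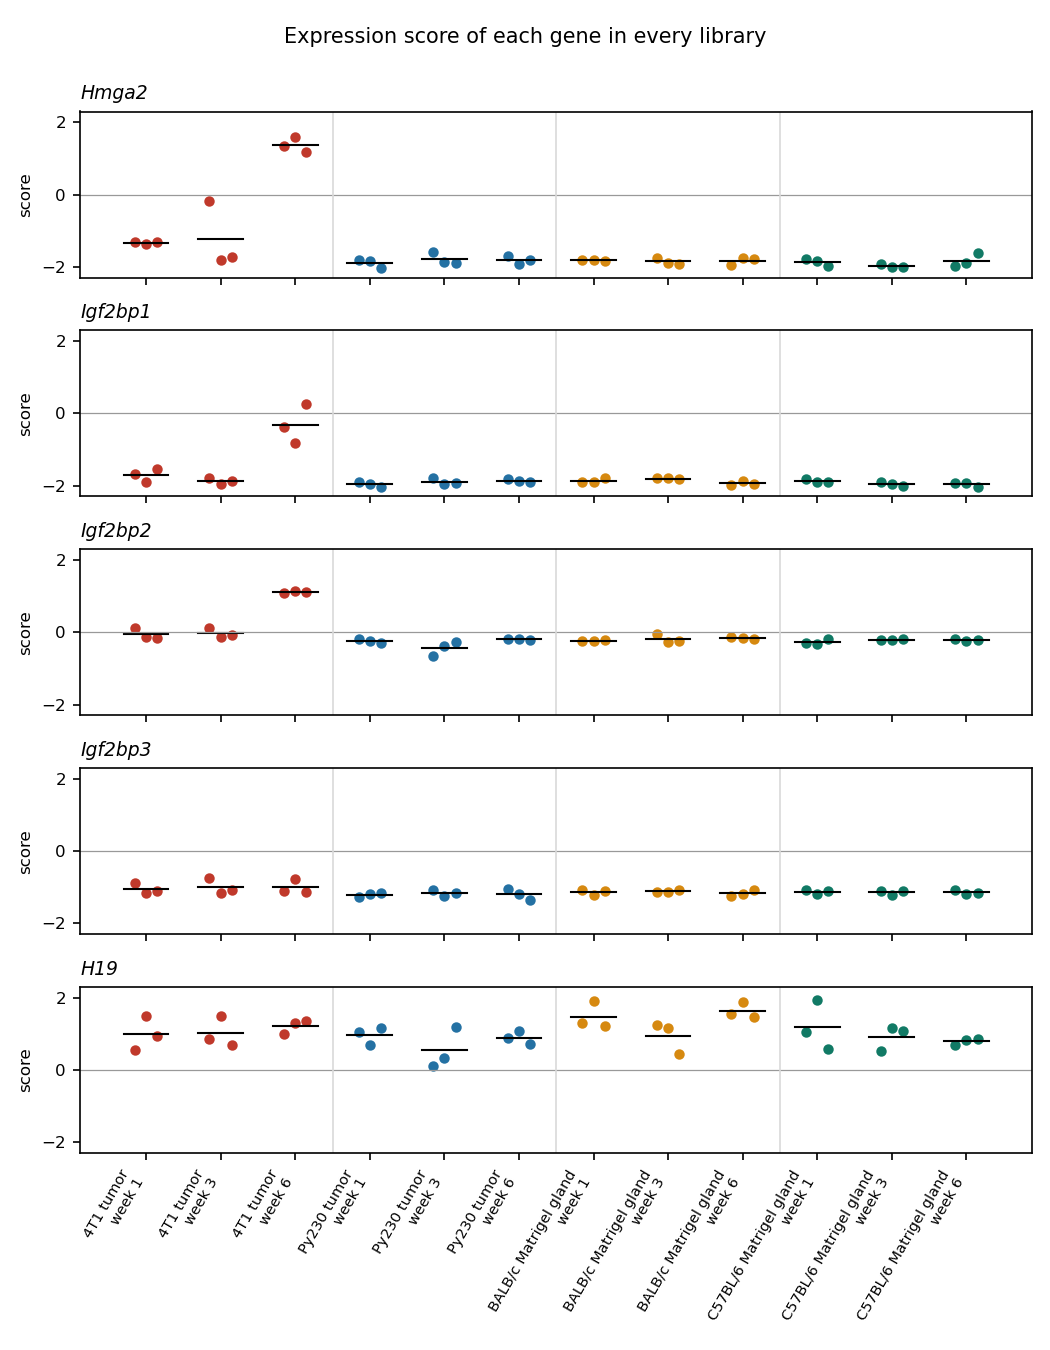
Expression score of Hmga2, Igf2bp1, Igf2bp2, Igf2bp3 and H19 (vertical axes, SD units within a library) in each of the 36 libraries, grouped by tissue and week; points are libraries in replicate order and black lines are group means (n = 3). Hmga2, Igf2bp1 and Igf2bp2 are highest in the 3 4T1 tumors of week 6, Igf2bp3 stays between -1.34 and -0.751, and H19 spreads from 0.104 to 1.94 with overlap of most groups.

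The comparisons of 1 and 3 w p.i. were not part of the rule that chose the genes, although earlier results of these data were known at that choice. They were tested with limma over all 21650 genes. The spread in these tests came from all 36 libraries, those of 6 w p.i. included. For Hmga2 the largest SD within a group was that of the 4T1 tumors of 3 w p.i. (0.924). Outside the 4T1 tumors of 6 w p.i. Hmga2 scored -2.04 to -0.174, with a median of -1.82. The tested differences thus lay mostly among low scores, where counting error could not be judged. At 1 w p.i. Hmga2 was higher in each 4T1 tumor than in each Py230 tumor, with a difference of 0.565 (95% interval 0.0959 to 1.03) that did not pass the threshold (limma, adjusted p = 0.0802), while a limma fit of these 6 libraries alone gave an adjusted p of 0.0131. Against the BALB/c control glands the difference was 0.493 (adjusted p = 0.127), again without overlap, as for 16.2% of all genes. At 3 w p.i. the difference from the Py230 tumors was 0.543 (0.0743 to 1.01, adjusted p = 0.0728) and rested on the first 4T1 tumor: without it the difference was 0.0101 (adjusted p = 0.960), and without the second or the third it was 0.831 (adjusted p = 0.00838) or 0.788 (adjusted p = 0.0144). The control glands of both strains differed by 0.0400 (1 w p.i.), 0.130 (3 w p.i.) and -0.00412 (6 w p.i.), with adjusted p of 0.989, 0.879 and 0.997 in limma.

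The time course of Hmga2 in the 4T1 tumors depended on the same library. The change from 1 to 3 w p.i. was 0.0906 (-0.378 to 0.559, limma adjusted p = 0.866). Without the first tumor of 3 w p.i. it was -0.443 (adjusted p = 0.00917), and the other 2 lay within the range of the control glands. In Py230 tumors the change was 0.112 (-0.357 to 0.581, limma adjusted p = 0.770). The change of the difference between the tumor types from 1 to 3 w p.i. was -0.0216 (-0.685 to 0.641, limma adjusted p = 0.972).

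Markers of other cell types moved with these values. The mean of 5 adipocyte markers (Adipoq, Plin1, Lep, Cidec and Cfd) was 0.653 in the first 4T1 tumor of 3 w p.i. and 2.03 and 2.16 in the other 2, against 1.68 to 2.28 in the 18 control glands. In the 4T1 tumors of 6 w p.i. it was -0.454, -0.510 and -0.0707, and in all 5 markers these tumors lay below their control glands. The Py230 tumors of 6 w p.i. had similarly low adipocyte means in 2 of 3 libraries (-0.145, 0.0881 and 1.10), with 5 of 5 markers below their control glands, and Hmga2 scores of -1.71, -1.91 and -1.82. The milk protein genes Csn2, Csn3, Wap and Lalba averaged -0.761, -0.718 and -0.729 in the 4T1 tumors of 6 w p.i., against 0.325 to 0.644 in the Py230 tumors of that week. In the 4T1 tumors of 6 w p.i., 5 of 5 skeletal muscle markers and 3 of 3 basal epithelial markers also lay below the control glands, and 4 of 4 leukocyte markers and 3 of 3 proliferation markers lay above them. Of the fibroblast markers 1 of 3 and of the endothelial markers 1 of 2 lay below. In the Py230 tumors of 6 w p.i., 5 of 5 muscle markers likewise lay below their control glands and 3 of 3 proliferation markers above. There 1 of 3 basal, 2 of 3 fibroblast and 2 of 2 endothelial markers lay below, and 0 of 4 leukocyte markers above. The first 4T1 tumor of 3 w p.i. had a leukocyte mean of 0.577, against 0.0568 and 0.0718 in the other 2. At 1 w p.i. the adipocyte means were 1.17, 1.77 and 1.24 in 4T1 and 2.02, 2.04 and 1.84 in Py230 tumors. The leukocyte means were 0.341, 0.0990 and 0.306 against -0.330, -0.111 and -0.0754. In these 4T1 tumors 3 of 5 adipocyte and 1 of 2 endothelial markers lay below the control glands. Above them lay 3 of 4 leukocyte and 3 of 3 proliferation markers, and the other lists had no such marker. In the Py230 tumors 3 of 5 luminal and 2 of 3 basal markers lay above, and 1 of 4 leukocyte below. The part of these cell types in the Hmga2 values was not tested.

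**Figure D3:**
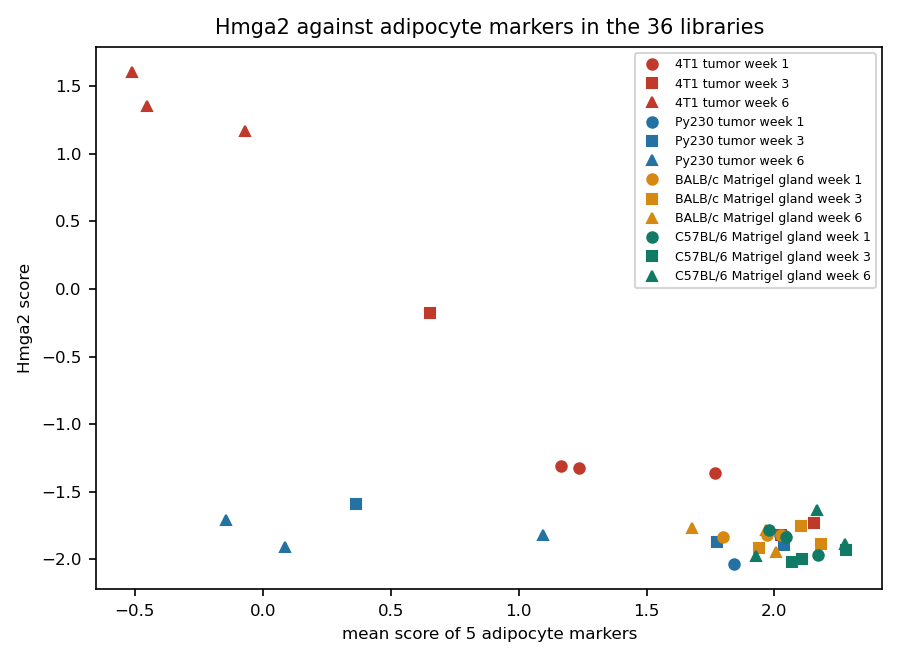
Hmga2 score (vertical axis) against the mean score of 5 adipocyte markers (horizontal axis) in the 36 libraries, with color for tissue and marker shape for week. The 4T1 tumors of week 6 lie at the top left, the first 4T1 tumor of week 3 lies between them and the rest, and the Py230 tumors with low adipocyte markers stay at Hmga2 scores of -1.91 to -1.59.

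The genes beside Hmga2 differed far less at 6 w p.i. than Hmga2 itself (3.19). Among the nearest protein-coding genes with values, the 4T1 minus Py230 difference at that time was 0.121 for Llph and 0.0215 for Tmbim4 on one side, and -0.288 for Msrb3 and 0.127 for Lemd3 on the other. Llph and Lemd3 were higher in 4T1 tumors without overlap, as were 35.1% of all genes. Msrb3 was lower without overlap, and Tmbim4 overlapped. An antisense gene, 1700006J14Rik (plus strand, chr10:120364157-120384336), overlaps the last exon of Hmga2, and reads of both can be told apart only if counting used the strand, which the sources used here do not state. It was higher in 4T1 than in Py230 tumors by 0.325 at 1 w p.i. (limma, adjusted p = 0.00475) and by 0.339 at 3 w p.i. (adjusted p = 0.00151), without overlap, while Hmga2 did not pass the test at either time. At 6 w p.i. its 4T1 scores of -1.21, -0.909 and -1.09 overlapped those of 1 w p.i. (-1.14, -1.37 and -1.04), whereas the Hmga2 scores of these times did not overlap. The 1700006J14Rik scores of the 4T1 tumors at 6 w p.i. also lay above all 9 Py230 tumors (-1.53 to -1.44), given without a test.

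Igf2bp2 (ENSMUSG00000033581, chr16:22059009-22163299), whose protein carries IGF2 and other mRNAs in the cytoplasm, was the only one of the 5 measured genes called in a tested comparison of the main fit. Its 4T1 scores were 0.127, -0.137 and -0.157 at 1 w p.i., 0.131, -0.121 and -0.0640 at 3 w p.i. and 1.09, 1.13 and 1.12 at 6 w p.i. The Py230 tumors scored -0.171, -0.254 and -0.306 at 1 w p.i., -0.668, -0.389 and -0.261 at 3 w p.i. and -0.196, -0.182 and -0.216 at 6 w p.i. All 9 Py230 tumors thus lay below all 9 4T1 tumors, at the closest by -0.171 against -0.157. The 4T1 tumors of 6 w p.i., which chose the genes, are among them. The share of all genes separated in this way was not computed. The 18 control glands (-0.324 to -0.0332) overlapped both tumor types.

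At 3 w p.i. Igf2bp2 was 0.421 higher in 4T1 than in Py230 tumors (0.260 to 0.583, limma adjusted p = 0.000248). A fit of these 6 libraries alone gave an adjusted p of 0.133. Of all genes, 30.3% were called in this comparison and 11.9% were called higher, and of the 5 genes 1 was called. Without overlap, 13.9% of all genes were higher, and so was this 1 of the 5. With the difference of the control glands subtracted, the value was 0.404 (0.175 to 0.633, limma adjusted p = 0.0237), with 9.15% of all genes called and 2.64% called higher. At 1 w p.i. the same subtraction gave 0.156 for Igf2bp2 (limma, adjusted p = 0.480), with 0 of the 5 genes and 0.305% of all genes called. An unadjusted p under 0.05 was reached by 0 of 5, and the share of all genes was not computed for it. Part of the difference lay on the Py230 side, where Igf2bp2 was 0.234 lower than in the C57BL/6 control glands (limma, adjusted p = 0.0368), a comparison with 19.7% of all genes called and 6.9% called lower. That call rested on single libraries: without the first Py230 tumor of 3 w p.i. the difference was -0.120 (adjusted p = 0.444), and the call was also lost without the second Py230 tumor (-0.259, adjusted p = 0.0536) or without any 1 of the 3 control glands. The first Py230 tumor also had low adipocyte markers (mean 0.364, against 1.78 and 2.04 in the other 2), and their part was not tested.

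Against the BALB/c control glands, Igf2bp2 in 4T1 tumors differed by 0.180 at 1 w p.i. (limma, adjusted p = 0.108) and by 0.170 at 3 w p.i. (adjusted p = 0.209). The 4T1 minus Py230 difference was 0.188 at 1 w p.i. (adjusted p = 0.0913) and its change to 3 w p.i. was 0.233 (0.00461 to 0.462, adjusted p = 0.157), neither of which passed the threshold. The 18 control glands stayed between -0.324 and -0.0332, and the strains differed by at most 0.0519, at 6 w p.i. (limma, adjusted p = 0.852).

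Igf2bp1 (ENSMUSG00000013415, chr11:95957163-96005940), a regulator of mRNA localization and stability in the embryo, was near the bottom of the score range except in the 4T1 tumors of 6 w p.i. There it scored -0.376, -0.821 and 0.274, whereas the 33 other libraries lay between -2.04 and -1.55. The highest of those 33 was the third 4T1 tumor of 1 w p.i. Differences of Igf2bp1 between 4T1 and Py230 tumors were 0.250 at 1 w p.i. (-0.0353 to 0.535, limma adjusted p = 0.206) and 0.0181 at 3 w p.i. (-0.267 to 0.303, adjusted p = 0.946), and 1.55 at 6 w p.i., given without a test. The first 4T1 tumor of 3 w p.i., which was high in Hmga2, scored -1.80 for Igf2bp1, close to -1.96 and -1.88 in the other 2.

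Igf2bp3 (ENSMUSG00000029814, chr6:49085223-49214957), the family member most often found in carcinomas, showed no such rise. Over all 36 libraries it lay between -1.34 and -0.751. The 4T1 tumors scored -0.879, -1.16 and -1.10 at 1 w p.i., -0.751, -1.15 and -1.08 at 3 w p.i., and -1.10, -0.772 and -1.14 at 6 w p.i. The difference from Py230 tumors was 0.167 at 1 w p.i. (-0.0231 to 0.357, limma adjusted p = 0.205), 0.165 at 3 w p.i. (-0.0247 to 0.355, adjusted p = 0.185) and 0.186 at 6 w p.i., where the groups overlapped. The end of Igf2bp3 overlaps Malsu1 on the other strand by 1529 bases. With a pooled mean count of 15.1, a small difference could not be resolved beyond these intervals.

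Among the 21650 genes the 4T1 minus Py230 difference at 6 w p.i. ranked first for Hmga2, 35th for Igf2bp1, 55th for Igf2bp2, 1493rd for H19 and 3744th for Igf2bp3. In that comparison 35.1% of all genes were higher in 4T1 tumors without overlap of the groups, and so were 3 of the 5 genes. At 1 w p.i. 3 of the 5 genes (Hmga2, Igf2bp2 and Igf2bp3) were higher without overlap, against 20.5% of all genes. None passed the threshold (0 of 5, against 19.4% of all genes called and 11% called higher). In limma 2 of 5 had an unadjusted p under 0.05, for which the share of all genes was not computed.

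**Figure D4:**
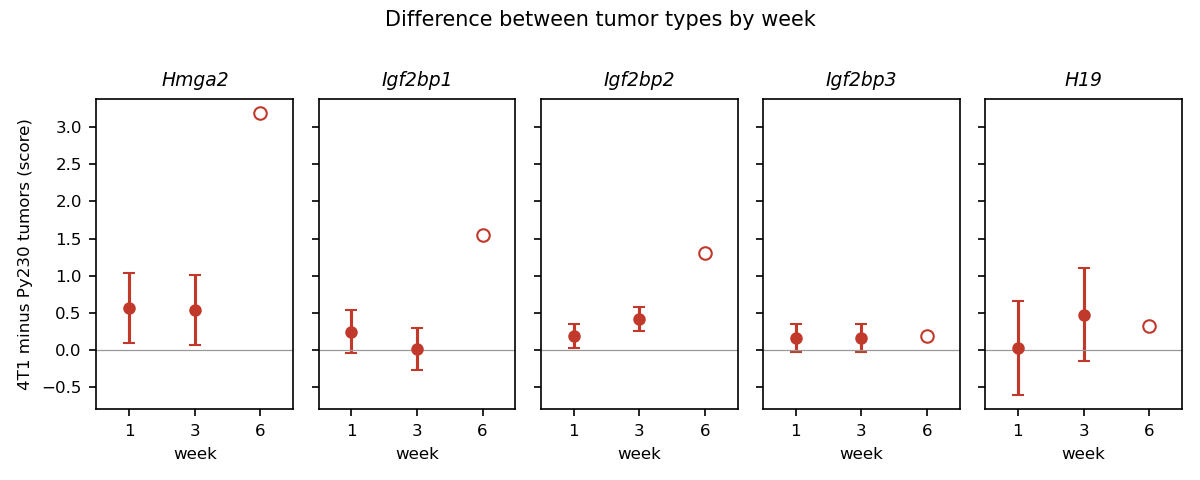
Difference in score between 4T1 and Py230 tumors (vertical axis) by week for each gene. Filled points with 95% intervals from limma are the tested weeks 1 and 3, and open points are week 6, which chose the genes and has no test. Of the tested values only Igf2bp2 at week 3 (0.421) passed the threshold, and the open points reach 3.19 for Hmga2, 1.55 for Igf2bp1 and 1.31 for Igf2bp2.

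The promoters of Hmga2 and Igf2bp2, 2 of the 3 genes that were high in 4T1 tumors of 6 w p.i., are shown as the 250 bases before the start (RefSeq, GRCm38.p6, minus strand). These are reference sequences and not those of 4T1 cells. Capitals mark the GC box, searched as GGGCGG on both strands and known as a site of SP1-type factors. The Hmga2 promoter held 1 such match and the Igf2bp2 promoter 2, against 32.7% of 32851 promoters with at least 1. The CCAAT box was absent from both windows and present in 33.8% of promoters. The letters TATAAA of the TATA box were likewise absent from both and present in 12.4%. The E-box, searched as CACGTG, was absent from both and present in 6.02%. The Hmga2 window had 70.8% pyrimidines and 56.4% GC, and that of Igf2bp2 had 77.2% GC, against a median of 52.4% GC over all promoters.
Hmga2 (chr10:120476470-120476719): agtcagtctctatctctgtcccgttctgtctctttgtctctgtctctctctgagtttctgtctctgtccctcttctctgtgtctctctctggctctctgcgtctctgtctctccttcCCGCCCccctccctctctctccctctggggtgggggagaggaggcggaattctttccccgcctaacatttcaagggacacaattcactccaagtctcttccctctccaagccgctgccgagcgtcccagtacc
Igf2bp2 (chr16:22163300-22163549): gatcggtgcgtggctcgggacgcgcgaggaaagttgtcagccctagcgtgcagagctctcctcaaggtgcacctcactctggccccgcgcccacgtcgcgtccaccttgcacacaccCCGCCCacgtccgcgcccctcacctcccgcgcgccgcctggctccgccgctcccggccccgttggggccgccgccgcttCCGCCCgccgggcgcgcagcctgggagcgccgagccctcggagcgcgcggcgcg

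Next to Igf2bp2, the 4T1 minus Py230 difference at 6 w p.i. was 0.0774 for Senp2, -1.03 for the lipase gene Liph, -0.0475 for the splicing factor gene Tra2b and -0.456 for the ETS factor gene Etv5. At 3 w p.i., when Igf2bp2 was higher in 4T1 tumors, Liph was 0.617 lower (limma, adjusted p = 2.97e-05) and Etv5 0.700 lower (adjusted p = 0.000219). Next to Igf2bp1, the difference at 6 w p.i. was -0.00359 for B4galnt2, -0.00711 for Gngt2, -0.00625 for Snf8 and 0.0236 for Ube2z. B4galnt2 was 0.410 lower in 4T1 tumors at 3 w p.i. (limma, adjusted p = 0.00126), and Ube2z 0.192 lower (adjusted p = 0.00214).

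Next to Igf2bp3, the difference at 6 w p.i. was 0.105 for Malsu1, -0.0157 for Gpnmb, 0.0152 for Tra2a and 0.0533 for Ccdc126, against 0.186 for Igf2bp3 itself. At 3 w p.i. Tra2a was 0.120 lower in 4T1 tumors (limma, adjusted p = 0.0388) and Ccdc126 0.151 higher (adjusted p = 0.00690). The genes around Lin28b, which itself had no score, differed at 6 w p.i. by -0.0525 (Bves), 0.0138 (Popdc3), 0.150 (Hace1) and 0.350 (Grik2), and none of the 4 was called by limma at 1 or 3 w p.i. (adjusted p 0.139 or above). Grik2 is the next gene with values on its side but lies 3608438 bases away, against 4141 for Bves, 58168 for Popdc3 and 91434 for Hace1.

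H19 (ENSMUSG00000000031, chr7:142575529-142578143) spread widely within groups. Scores are not corrected for gene length. A gene called low or high here is so by its place among the scores of a library, and not by a length-corrected level. The 4T1 tumors scored 0.569, 1.49 and 0.951 at 1 w p.i., 0.869, 1.50 and 0.708 at 3 w p.i. and 0.990, 1.30 and 1.35 at 6 w p.i., and the Py230 tumors 1.06, 0.689 and 1.18, then 0.104, 0.333 and 1.20, then 0.881, 1.08 and 0.716. The control glands ranged from 0.454 to 1.94, so most groups overlapped. The 4T1 minus Py230 difference was 0.0262 at 1 w p.i. (-0.602 to 0.655, limma adjusted p = 0.962) and 0.478 at 3 w p.i. (-0.151 to 1.11, adjusted p = 0.251), which became 0.805 (adjusted p = 0.0487) without the third Py230 tumor.

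Markers of skeletal muscle moved with H19 in part of the groups. The mean of 5 of them (Acta1, Ckm, Myh4, Mylpf and Tnnt3) was -0.663, 0.820 and 2.41 in the Py230 tumors of 3 w p.i., so the third Py230 tumor, whose omission gave the larger H19 difference, was also the richest in muscle markers. Both H19 and these markers were lowest in the first and highest in the second 4T1 tumor of 1 w p.i. (muscle means -0.493, 2.18 and 1.17). The C57BL/6 control glands of 1 w p.i. scored 1.04, 1.94 and 0.588 for H19, with muscle means of 1.75, 2.97 and -0.513. In the 4T1 tumors of 6 w p.i. the order differed, with muscle means of -0.156, -0.515 and 0.412. The part of muscle in the H19 values was not tested.

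The largest H19 difference between the strains was in the control glands of 6 w p.i., where 1.56, 1.89 and 1.46 in BALB/c stood above 0.697, 0.820 and 0.872 in C57BL/6. The difference of 0.840 (0.211 to 1.47) did not pass the threshold over all genes (limma, adjusted p = 0.155, or 0.0140 in a fit of these 6 libraries alone). Of the 5 genes 0 were called there, with 3.84% of all genes called and 1.67% called higher. An unadjusted p under 0.05 was reached by 1 of the 5, and the share of all genes was not computed for it. The skeletal muscle means of these glands did not overlap either, with 2.54, 2.93 and 2.50 in BALB/c and 1.92, 2.20 and 2.19 in C57BL/6, and their part was not tested. Igf2, the growth factor gene that shares its imprinted domain with H19, was low in all libraries, between -1.34 and -0.340, and its difference between the tumor types was -0.214 at 1 w p.i. (limma, adjusted p = 0.338), 0.103 at 3 w p.i. (adjusted p = 0.658) and -0.120 at 6 w p.i. Of the other neighbours, Mrpl23 differed by 0.175 at 6 w p.i., the fast troponin T gene Tnnt3, one of the muscle markers, by -0.445, and Th by -0.120. The 2 mature forms of miR-675, cut from within H19 on chr7, are given with their seeds in capitals because they are the products by which H19 is best known to act on other RNAs; the microRNAs themselves were not measured.
miR-675-5p: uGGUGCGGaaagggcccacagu
miR-675-3p: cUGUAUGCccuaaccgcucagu

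In the remaining tested comparisons 0 of the 5 genes were called by limma. These were 4T1 tumors against their control glands at 1 w p.i. (2 of 5 at an unadjusted p under 0.05, 16.6% of all genes called) and at 3 w p.i. (2 of 5, 3.25% called), and Py230 tumors against theirs at 1 w p.i. (0 of 5, 0.00924% called). The list also holds the control glands of both strains at 1 w p.i. (0 of 5, 3.06% called) and 3 w p.i. (0 of 5, 3.77% called), and the change from 1 to 3 w p.i. in 4T1 tumors (0 of 5, 0.628% called) and in Py230 tumors (1 of 5, 20% called). The change of the tumor difference from 1 to 3 w p.i. completes it (1 of 5, 15.3% called). In these brackets the counts of the 5 genes are at an unadjusted p under 0.05, while the shares of all genes are at the adjusted threshold. The share of all genes at an unadjusted p was not computed, so count and share cannot be set against each other.

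Genes that work with these 6 were followed in 7 lists. In the let-7 and LIN28 list of 14 processing genes, 0 were higher and 3 lower in 4T1 than in Py230 tumors at 3 w p.i., where 18.5% of all genes were called lower, and the median difference was -0.0298 against -0.0112 over all genes. Among the 3 were Dis3l2, the exonuclease that degrades uridylated let-7 precursors (-0.193, limma adjusted p = 0.00116), and Zcchc11, a uridylyl transferase recruited by LIN28 (-0.176, adjusted p = 0.00787). The count was 0 higher and 2 lower at 1 w p.i., where 8.43% of all genes were called lower. Lin28a, the paralog of Lin28b, differed by 0.206 at 1 w p.i. (adjusted p = 0.0756) and by -0.200 at 3 w p.i. (adjusted p = 0.0654).

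Of 20 known let-7 target genes other than the 6, 3 were higher and 4 lower in 4T1 tumors at 3 w p.i., with a median difference of -0.00431, where 11.9% of all genes were called higher and 18.5% lower and the median over all genes was -0.0112. The higher ones included Igf1r, the IGF1 receptor gene (0.421, limma adjusted p = 0.000585), and Arid3a (0.389, adjusted p = 0.000179). The lower ones included Hras (-0.906, adjusted p = 6.67e-10) and the cyclin gene Ccnd1 (-0.592, adjusted p = 0.000112). The counts were 2 and 2 at 1 w p.i., where 11% of all genes were called higher and 8.43% lower. A CTACCTC match was present in the 3' UTR of 13 of the 20, among them 2 in Igf1r and 2 in Arid3a, and none in Hras or Ccnd1.

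In the IGF2 axis of 7 genes, 3 were higher and 2 lower at 3 w p.i. (median 0.103, with 11.9% of all genes called higher and 18.5% lower), namely Igf1r and the ligand gene Igf1 (0.398, limma adjusted p = 0.0460) among the higher and the substrate gene Irs2 (-0.231, adjusted p = 0.00395) and the scavenging receptor gene Igf2r (-0.125, adjusted p = 0.0315) as the lower. None of the 7 was called at 1 w p.i. (0 higher and 0 lower by limma, against 11% and 8.43% of all genes). Of 12 genes of the imprinted network, 2 were higher and 2 lower at 3 w p.i. (median 0.110), beside the same 11.9% and 18.5% of all genes. The higher ones were the growth inhibitor gene Grb10 (0.388, adjusted p = 0.00745) and the noncoding Meg3 (0.340, adjusted p = 0.0221), and the lower ones Mest (-0.269, adjusted p = 0.0188) and Igf2r. The counts at 1 w p.i. were 0 higher and 3 lower, against 11% and 8.43% of all genes.

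Of 10 mRNAs known to be bound by IGF2BP proteins, 3 were higher and 2 lower at 3 w p.i. (median 0.103), and 2 were higher and 1 lower at 1 w p.i. Of all genes 11.9% and 18.5% were called higher and lower at the later time, and 11% and 8.43% at the earlier. The higher ones at 3 w p.i. included Ptgs2, which encodes cyclooxygenase-2 (0.667, limma adjusted p = 0.00357), and the hedgehog effector gene Gli1 (0.413, adjusted p = 0.0240). The lower ones were Mapk4 (-0.446, adjusted p = 8.11e-05) and the ubiquitin ligase gene Btrc (-0.112, adjusted p = 0.00942). Of 8 regulators of epithelial-mesenchymal transition linked to Hmga2, 4 were higher and 0 lower at 3 w p.i., where 11.9% of all genes were called higher, with a median difference of 0.220. Zeb2, a repressor of E-cadherin, was higher by 0.442 (adjusted p = 0.000439) and Tgfbr2, a TGF-β receptor gene, by 0.345 (adjusted p = 0.000519). The count at 1 w p.i. was 0 higher and 4 lower, where 8.43% of all genes were called lower. In Py230 tumors 6 of these 8 genes fell from 1 to 3 w p.i., where 7.17% of all genes did, and in 4T1 tumors 0 were called. No fit without single libraries is given for the 6 of 8. Over all genes that change in Py230 tumors had 4320 calls, 900 without the first tumor of 3 w p.i. and 3 in a fit of its libraries alone. The fibroblast markers Col1a1, Pdgfra and Dcn, 3 of 3, lay below the control glands in the Py230 tumors of 3 w p.i., and their part was not tested.

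The list of HMGA and other oncofetal genes had 9 members, of which Afp and Sall4 had no value. At 3 w p.i. 1 of 7 was higher and 0 lower in 4T1 tumors (median 0.0394), against 11.9% and 18.5% of all genes, and at 1 w p.i. 0 were higher and 2 lower (median -0.301), against 11% and 8.43%. The higher one was Hmga1, the paralog of Hmga2, which scored 0.653, 0.268 and 0.369 in 4T1 tumors and 0.109, 0.231 and 0.269 in Py230 tumors of 3 w p.i. The groups overlapped. The difference of 0.227 (limma, adjusted p = 0.0162) was not called without the first 4T1 tumor (0.116, adjusted p = 0.177) or without the first Py230 tumor (0.180, adjusted p = 0.114). At 6 w p.i. Hmga1 scored 1.16, 1.40 and 1.12 in 4T1 tumors and 0.347, 0.345 and 0.381 in Py230 tumors. Plag1, a transcription factor gene that acts with Hmga2 on the Igf2 promoter, was singled out after its values were seen. It scored 0.122, 0.263 and -0.135 in 4T1 tumors of 6 w p.i. and -1.27, -1.25 and -1.12 in Py230 tumors, and it was 0.301 lower in 4T1 tumors at 1 w p.i. (limma, adjusted p = 0.0101). That call was lost without the third 4T1 tumor (-0.275, adjusted p = 0.0597) or the first Py230 tumor (-0.221, adjusted p = 0.0887).

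Several list calls of 3 w p.i. rested on the first Py230 tumor, the one with low adipocyte markers, whose part was not tested. The fits that left out 1 library at a time for these lists were chosen after seeing the data. Igf1 scored 0.596, 1.44 and 1.66 in the 3 Py230 tumors, overlapping 1.68, 1.49 and 1.73 in the 4T1 tumors, and its difference was 0.0794 (limma, adjusted p = 0.650) without that tumor. Grb10 was also lowest there (0.398, 0.750 and 0.935, against 0.832, 1.30 and 1.12 in 4T1 tumors), and its difference fell to 0.240 (adjusted p = 0.111). Meg3 scored 0.0781, 0.239 and 0.517, against 0.547, 0.743 and 0.565, and its difference became 0.240 (adjusted p = 0.176). Igf1r, with 0.238, 0.565 and 0.827 against 1.01, 0.929 and 0.956, remained called at a smaller difference of 0.268 (adjusted p = 0.00925), as did Dis3l2 at -0.122 (adjusted p = 0.0211). The calls of Zcchc11, Irs2, Igf2r, Mest and Gli1 were lost, with adjusted p from 0.0502 (Irs2) to 0.234 (Igf2r).

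Without the first Py230 tumor the calls at 3 w p.i. were 1 higher and 0 lower in the IGF2 axis, 0 and 0 in the imprinted network (limma), 1 and 2 among the IGF2BP-bound mRNAs, 0 and 0 among the HMGA and oncofetal genes, 3 and 2 among the let-7 targets, 0 and 2 among the processing genes and 4 and 0 among the transition regulators. Calls of Grb10 and Meg3 were also lost without the second 4T1 tumor (adjusted p = 0.0678 and 0.101), and those of Igf1, Igf2r, Mest, Gli1 and Btrc without the first (0.102, 0.103, 0.0677, 0.123 and 0.0663). Leaving out the third 4T1 tumor ended the call of Igf1 (0.132), leaving out the second that of Igf2r (0.0747), and leaving out the second Py230 tumor those of Meg3 (0.0672) and Mest (0.0538). Hras, Ccnd1, Arid3a, Ptgs2, Mapk4, Zeb2 and Tgfbr2 were called at 3 w p.i. whichever of the 6 libraries was left out. At 1 w p.i., 0 genes of the let-7 target, imprinted, and HMGA and oncofetal lists were called without the third 4T1 tumor, and 1 gene, lower, of each of the processing, IGF2BP-bound and transition lists. Without the first 4T1 tumor 0 let-7 targets and 0 IGF2 axis genes were called, and 1 gene, lower, of each other list. Without the first Py230 tumor the HMGA and oncofetal list had 0 calls and the imprinted and transition lists 1 each, lower. Omitting the second or the third Py230 tumor left 2 lower in the transition list, against 4 with all libraries. No count fell without the second 4T1 tumor.

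The pattern of Hmga2 over the 36 libraries was compared with that of 13789 genes above the library mean in at least 1 group, by Pearson's r as a description. The 5 highest were Kdm4dl (0.983), the cytotoxic granule protease gene Gzme (0.968), Glrp1 (0.965), the ADP-dependent glucokinase gene Adpgk (0.958) and the ETS factor gene Elk3 (0.955). The 2 lowest were Plekha6 (-0.962) and Prlr, which encodes the prolactin receptor (-0.961). Kdm4dl, Gzme and Glrp1 had a group mean above 0 in the 4T1 tumors of 6 w p.i. alone (0.782, 0.470 and 0.319), so they entered through the libraries that chose Hmga2. All these r include those libraries and describe the pattern that chose the gene. Without those libraries r was 0.884 (Kdm4dl), 0.681 (Gzme), 0.782 (Glrp1), 0.753 (Adpgk), 0.662 (Elk3), -0.747 (Plekha6) and -0.759 (Prlr). These genes had already been picked with those libraries, so the lower r are a description as well.

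Kdm4dl, of a histone demethylase family, scored -0.917, -2.01 and -1.91 in the 4T1 tumors of 3 w p.i. Prlr scored -0.471, -0.572 and -0.271 in 4T1 tumors of 6 w p.i. and 1.95, 1.86 and 2.04 in Py230 tumors of that week. Gzme belongs to a cluster of similar granzyme genes that can share reads, so its values are uncertain. Within the 5 genes, r with Hmga2 was 0.941 for Igf2bp2, 0.897 for Igf2bp1, 0.508 for Igf2bp3 and 0.0748 for H19, and without the 4T1 tumors of 6 w p.i. it was 0.495, 0.464, 0.703 and -0.0971. Of those 33 libraries the first 4T1 tumor of 3 w p.i. was the highest in Hmga2 (-0.174), Kdm4dl (-0.917) and Igf2bp3 (-0.751). The part of that library in these r was not tested.

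**Figure D5:**
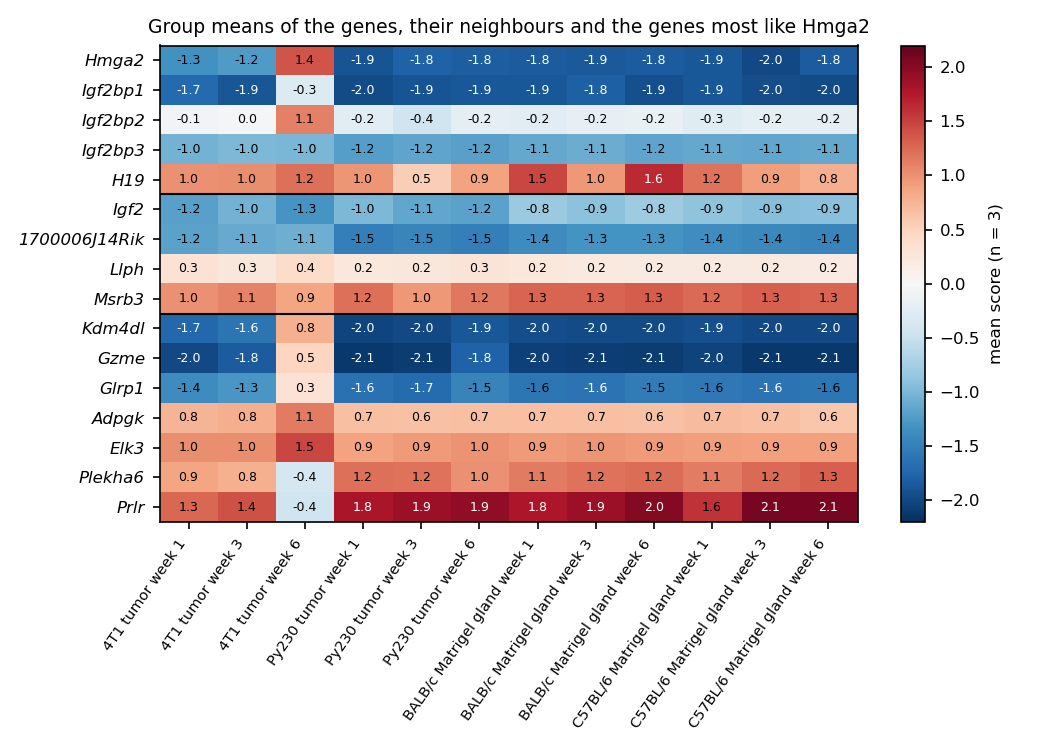
Mean score (color and printed number, n = 3) of the 5 genes, of Igf2 and 3 genes beside or over Hmga2, and of the 5 genes most like and 2 genes least like Hmga2, in the 12 groups. Hmga2, Igf2bp1 and Igf2bp2 stand out in the 4T1 tumors of week 6, as do the 5 like genes, while Plekha6 and Prlr are lowest there.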

How the data were processed

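Total RNA of 36 tumors and glands was sequenced by the authors as stranded libraries in pairs of 75-base reads, mapped with STAR to mm10, counted per gene with summariseOverlaps and normalized with DESeq2; versions, annotation and the strand setting are not given in the sources used here. The expression values the authors deposited are a score per gene and library with a mean of 0 and an SD of 1 within each library, a step they do not describe. Their tables of 4T1 against Py230 tumors also hold fold changes and p-values, which were not used, and mean normalized counts, printed here as the authors' means. Names came from those tables and, for 5384 genes, from GENCODE vM21 (mm10).

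Scores were fitted in R 4.3.3 with limma 3.58.1 (12 group means, 36 libraries, trended and robust empirical Bayes, statmod 1.5.0), with Benjamini-Hochberg adjustment over 21650 genes and a threshold of 0.05. Limma was used because the values are scores and not counts. The code was tested on simulated data. The members and lists were chosen with earlier results of these data known. Named were the 6 genes, their nearest 2 protein-coding neighbours on each side, the 5 most and 2 least correlated with Hmga2, Igf2, and per list up to 2 called genes in each direction at week 3. Adipocyte, muscle, milk, luminal, basal, fibroblast, leukocyte, endothelial and proliferation markers were followed. Libraries with equal numbers were not paired: of 54 pairs, 17 had correlated deviations above 0.1.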

Additional observations from a re-analysis of the deposited data

Results flagged for a closer look

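The Igf2bp2 difference between 4T1 and Py230 tumors at 3 w p.i. stood apart from that between the control glands of the same strains: each tumor type was set against its own glands, and the difference of these differences was 0.404 (limma, adjusted p = 0.0237). It was composed of 0.170 in 4T1 tumors and -0.234 in Py230 tumors against their glands. The 4T1 part was not called (limma, adjusted p = 0.209). The call of the Py230 part was lost without the first Py230 tumor (-0.120, limma adjusted p = 0.444). Fits of the difference of differences without single libraries are not given here.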

How the results depend on the processing

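With only the libraries compared in the fit, 1 of the 5 genes was called between the tumor types at 1 w p.i. (Hmga2, 0.565, adjusted p = 0.0131) and 1 between the control glands at 6 w p.i. (H19, 0.840, adjusted p = 0.0140), against 0 in each, and 0 were called between the tumor types at 3 w p.i. and between Py230 tumors and their glands at 3 w p.i., against 1 in each. Igf2bp2 then had adjusted p of 0.133 and 0.204. The main fit takes the spread from all 36 libraries and this fit from the compared libraries alone, and the part of single groups was not tested. Over all genes that fit called 1487 instead of 4196 for the tumor types at 1 w p.i., 434 instead of 6569 at 3 w p.i., 36 instead of 4267 for Py230 tumors against glands at 3 w p.i., 0 instead of 3601 and of 704 for 4T1 tumors against glands at 1 and 3 w p.i., 4 instead of 3307 for the change of the tumor difference, and 0 instead of 136 and 3 instead of 4320 for the changes in 4T1 and Py230 tumors. Between the glands at 1 w p.i. it called 219 instead of 662, and a filter on genes above the library mean called 332, and 379 instead of 816 and 404 instead of 832 at 3 and 6 w p.i. Subtracting the glands left 66 calls between the tumor types at 1 w p.i. (78.8% instead of 56.5% higher) and 1980 at 3 w p.i. (28.8% instead of 39.1%). Quantile normalization also lost the last Igf2bp2 call (0 called, -0.206, adjusted p = 0.0566). Cyclic loess moved the share of higher calls in Py230 tumors from 1 to 3 w p.i. from 64.1% to 53.4% and the calls in 4T1 tumors from 136 to 209. Leaving out 1 library at a time gave 1 to 2 called genes for the tumor types at 3 w p.i. and 0 to 1 for 4T1 tumors against glands at 3 w p.i., Py230 tumors against glands at 3 w p.i., the change of the tumor difference and the changes from 1 to 3 w p.i. in each tumor type. Over all genes, the tumor types at 1 w p.i. went from 4196 calls to 1832, 1634 and 2117 without 4T1 tumor 1, 4T1 tumor 3 or Py230 tumor 1, and at 3 w p.i. from 6569 to 3694 without Py230 tumor 1. 4T1 tumors against glands at 1 w p.i. went from 3601 to 474, 32 and 133 without 4T1 tumor 1, 4T1 tumor 3 or gland 2, and at 3 w p.i. from 704 to between 3 (without 4T1 tumor 1) and 2155 (without 4T1 tumor 3), moving over 1.5 times without any 1 of the 6 libraries. Py230 tumors against glands at 3 w p.i. went from 4267 to 943, 6969, 2630 and 2478 without Py230 tumor 1 or 3 or gland 2 or 3, and at 1 w p.i. from 2 to between 0 and 78. The glands at 3 w p.i. went from 816 to 535 without BALB/c gland 2. The change of the tumor difference went from 3307 to 1970 without 4T1 tumor 1 of 1 w p.i., to 5452, 1875 and 2189 without 4T1 tumors 1, 2 and 3 of 3 w p.i., and to 1071 and 5843 without Py230 tumors 1 and 3 of 3 w p.i. The change in 4T1 tumors went from 136 to between 12 (without tumor 1 of 1 w p.i.) and 3378 (without tumor 1 of 3 w p.i.), over 1.5 times for each library, and that in Py230 tumors from 4320 to 2222 without tumor 3 of 1 w p.i. and to 900, 2825 and 6740 without tumors 1, 2 and 3 of 3 w p.i. The Hmga2 change in 4T1 tumors was -0.443 to 0.379 on leaving out 1 library and turned to -0.443 without 4T1 tumor 1 of 3 w p.i. The Igf2bp2 difference of 0.421 at 3 w p.i. ranged from 0.307 to 0.510 under all alternatives. The replicate block, used although the numbers do not pair the samples, left 0 or 1 of 5 genes called as before in every comparison, and the largest count of all genes, for the tumor types at 3 w p.i., was 6826 instead of 6569. In 53 uncalled differences an alternative changed the sign. The Hmga2 difference of 6 w p.i. was 3.07 to 3.29 on leaving out 1 library. The depth is unknown, and low genes such as Igf2bp1 and Igf2bp3 cannot be judged for counting error. The same holds for Hmga2 outside the 4T1 tumors of 6 w p.i.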
